A study of Mus musculus with 16 samples.

Results

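The lipolytic enzymes of pancreatic juice were followed in the pancreas RNA of lean and obese mice. Genes were chosen by name, as the pancreatic lipase gene Pnlip, its relatives Pnliprp1 and Pnliprp2, the carboxyl ester lipase gene Cel, the colipase gene Clps and the pancreatic phospholipase A2 gene Pla2g1b. These are 6 of the 24411 genes in the count table, and all 6 passed the filter on low counts that left 13660 genes for testing.

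Whole pancreas was sequenced from 16 male C57BL6/J mice aged 12 weeks. The 5 WT mice and 7 Lep(ob/ob) mice, which lack leptin and become obese, drank control water. The other 4 Lep(ob/ob) mice drank a CCK receptor antagonist (CCKRi) from 6 weeks of age for 6 weeks, of which 2 received proglumide (0.1 mg/ml) and 2 received lorglumide (0.05 mg/ml). Both drugs block receptors of cholecystokinin (CCK), the gut hormone that drives enzyme secretion. The labels give an in-house colony as the source of the WT mice and a vendor as that of the Lep(ob/ob) mice, whereas the study's methods have both bought, so that a difference in source between genotypes is not settled. No WT mice with an antagonist were included. Lean mice weighed 27.7 ± 3.22 g (SD, n = 5), untreated obese mice 51.0 ± 1.98 g (SD, n = 7) and treated obese mice 54.8 ± 2.22 g (SD, n = 4). The labels place 3 WT and 4 Lep(ob/ob) mice in a batch called A here, and 2 WT, 3 Lep(ob/ob) and all 4 CCKRi-treated mice in a batch called B. Each mouse of batch A had between 19190355 and 34451157 counts, and each mouse of batch B between 9869940 and 15882889.

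Acinar cells, the enzyme-making cells of the pancreas, secrete these proteins into the gut. Pancreatic lipase splits dietary triglyceride and needs colipase to hold on to fat droplets that are coated with bile salts. Carboxyl ester lipase depends on bile salts and splits cholesteryl and other esters, whereas the pancreatic phospholipase A2 is released as an inactive precursor and splits phospholipids. PNLIPRP2 acts on galactolipids and phospholipids as well, and PNLIPRP1 has little known lipase activity.

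Pnlip, Pnliprp1 and Pnliprp2 are neighbours on the plus strand of chromosome 19 (GRCm38, GENCODE annotation), where Pnlip spans chr19:58670365-58681788, Pnliprp1 chr19:58728887-58744169 and Pnliprp2 chr19:58759719-58777534. Coding bases were identical at 70.6% of aligned positions between Pnlip and Pnliprp1, at 70.9% between Pnlip and Pnliprp2 and at 68.3% between Pnliprp1 and Pnliprp2. Cel lies at chr2:28555795-28563362 on the minus strand, Clps at chr17:28558149-28560766 on the minus strand and Pla2g1b at chr5:115466262-115474722 on the plus strand. None of the 6 genes shared a stretch of 50 bases with a transcript of another gene, so that reads of this length or longer could be placed on each.

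Promoter sequences of RefSeq (GRCm38.p6) were matched for 5 of the 6 genes, all but Clps. The 250 bases before each start site are shown because these genes ran together across mice, and because Pla2g1b was the only one of them called between genotypes. Capitals mark the E-box form CACCTG, the RBPJ core TGGGAA and the NR5A2 half-site AAGGTCA on either strand, which are letters bound by the acinar regulators PTF1A, RBPJL and NR5A2.
Pnlip, chr19:58670115-58670364, plus strand: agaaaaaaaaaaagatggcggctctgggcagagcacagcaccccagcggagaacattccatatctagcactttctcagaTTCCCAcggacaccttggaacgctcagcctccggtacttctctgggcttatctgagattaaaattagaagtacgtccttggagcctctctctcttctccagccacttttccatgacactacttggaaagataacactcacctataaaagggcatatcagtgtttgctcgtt
Pnliprp1, chr19:58728637-58728886, plus strand: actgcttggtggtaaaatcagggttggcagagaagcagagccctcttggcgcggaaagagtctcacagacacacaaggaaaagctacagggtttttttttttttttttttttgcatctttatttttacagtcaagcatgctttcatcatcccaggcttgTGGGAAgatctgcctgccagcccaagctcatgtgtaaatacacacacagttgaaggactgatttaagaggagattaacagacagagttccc
Pnliprp2, chr19:58759473-58759722, plus strand: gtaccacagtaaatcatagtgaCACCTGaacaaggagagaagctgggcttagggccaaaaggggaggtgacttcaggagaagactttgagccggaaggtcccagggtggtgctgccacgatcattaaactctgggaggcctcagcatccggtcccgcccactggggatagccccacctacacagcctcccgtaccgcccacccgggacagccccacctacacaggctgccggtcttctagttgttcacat
Cel, chr2:28563404-28563653, minus strand: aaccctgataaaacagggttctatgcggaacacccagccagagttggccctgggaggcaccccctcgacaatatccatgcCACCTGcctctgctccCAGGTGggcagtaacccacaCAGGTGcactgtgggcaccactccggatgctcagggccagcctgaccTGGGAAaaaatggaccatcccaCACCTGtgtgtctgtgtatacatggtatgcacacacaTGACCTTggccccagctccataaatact
Pla2g1b, chr5:115465892-115466141, plus strand: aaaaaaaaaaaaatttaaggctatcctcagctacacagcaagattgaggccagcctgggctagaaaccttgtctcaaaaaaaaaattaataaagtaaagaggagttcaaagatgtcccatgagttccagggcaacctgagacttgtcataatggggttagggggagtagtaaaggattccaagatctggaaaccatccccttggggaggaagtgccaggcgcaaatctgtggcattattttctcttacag
The window of Cel held 4 copies of CACCTG, 1 of TGGGAA and 1 of AAGGTCA. Pnlip and Pnliprp1 each held 1 TGGGAA, Pnliprp2 held 1 CACCTG, and Pla2g1b held none of these letters. Among 32851 promoter windows of the same length, 17.2% held CACCTG, 21.6% held TGGGAA and 4.08% held AAGGTCA. For Pla2g1b the GENCODE start lies 120 bases downstream of the RefSeq start, so that its window may not be the one next to the start used in pancreas.

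The 6 genes were among the most abundant transcripts of the tissue. Together they took between 13.2% and 19.9% of a lean mouse's counts, between 16.6% and 24.0% of an untreated obese mouse's and between 12.2% and 18.9% of a treated mouse's. Pnlip was the first or second most counted gene in every mouse, and Pla2g1b ranked between 30 and 229. Per length of transcript, the 3 WT mice of batch A had 108237 ± 4231 (SD, n = 3) CPM per kilobase (counts scaled to the TMM-adjusted library size of edgeR, not to the mouse's plain total, and to exon length) for Pnlip. On the same scale, Cel followed at 47938 ± 2504, Clps at 38185 ± 3759, Pnliprp1 at 22959 ± 664, Pnliprp2 at 4683 ± 191 and Pla2g1b at 3280.3 ± 233 (SD, n = 3 each). The ranges of no neighbours in this order overlapped among these mice. In the 2 WT mice of batch B the level of Cel was 11681 ± 6067 and that of Clps was 19675 ± 6351 (SD, n = 2 each), so that their order turned. As a plain share of counts, Cel took 5.89% ± 0.075 (SD, n = 3) in WT mice of batch A and 2.79% ± 0.77 (SD, n = 2) in those of batch B, a smaller gap than on the TMM scale.

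On the TMM scale, most of these genes were lower in batch B. In the model of all 3 groups, batch B lay below batch A by 1.47 on the log2 scale for Cel (SE 0.38, adjusted p = 0.00772). Pla2g1b, Pnliprp2, Pnliprp1 and Clps were also called lower in batch B, with log2 differences of -0.99, -0.96, -0.88 and -0.86, and Pnlip was not called (-0.77, adjusted p = 0.0989). Thus 5 of 6 genes were called lower in batch B on the TMM scale, as were 17.7% of all genes tested. These values come from edgeR's quasi-likelihood test, with p-values adjusted by Benjamini-Hochberg over all genes tested, as do all fold changes below unless another test is named. An interaction of genotype and batch was called for 0 of 13189 genes, and its adjusted p ran from 0.479 to 0.925 for the 6 genes. As a mean plain share of counts, WT mice of batch A and batch B had 0.139% and 0.0969% for Pla2g1b and 0.439% and 0.333% for Pnliprp2. They had 2.22% and 1.82% for Pnliprp1 and 1.39% and 1.43% for Clps. In Lep(ob/ob) mice these shares were 0.0664% and 0.0673%, 0.539% and 0.530%, 2.59% and 2.66%, and 1.41% and 1.31%, in the same order. Clps in WT and Pla2g1b and Pnliprp1 in Lep(ob/ob) were thus not lower in batch B on this scale.

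**Figure D1:**
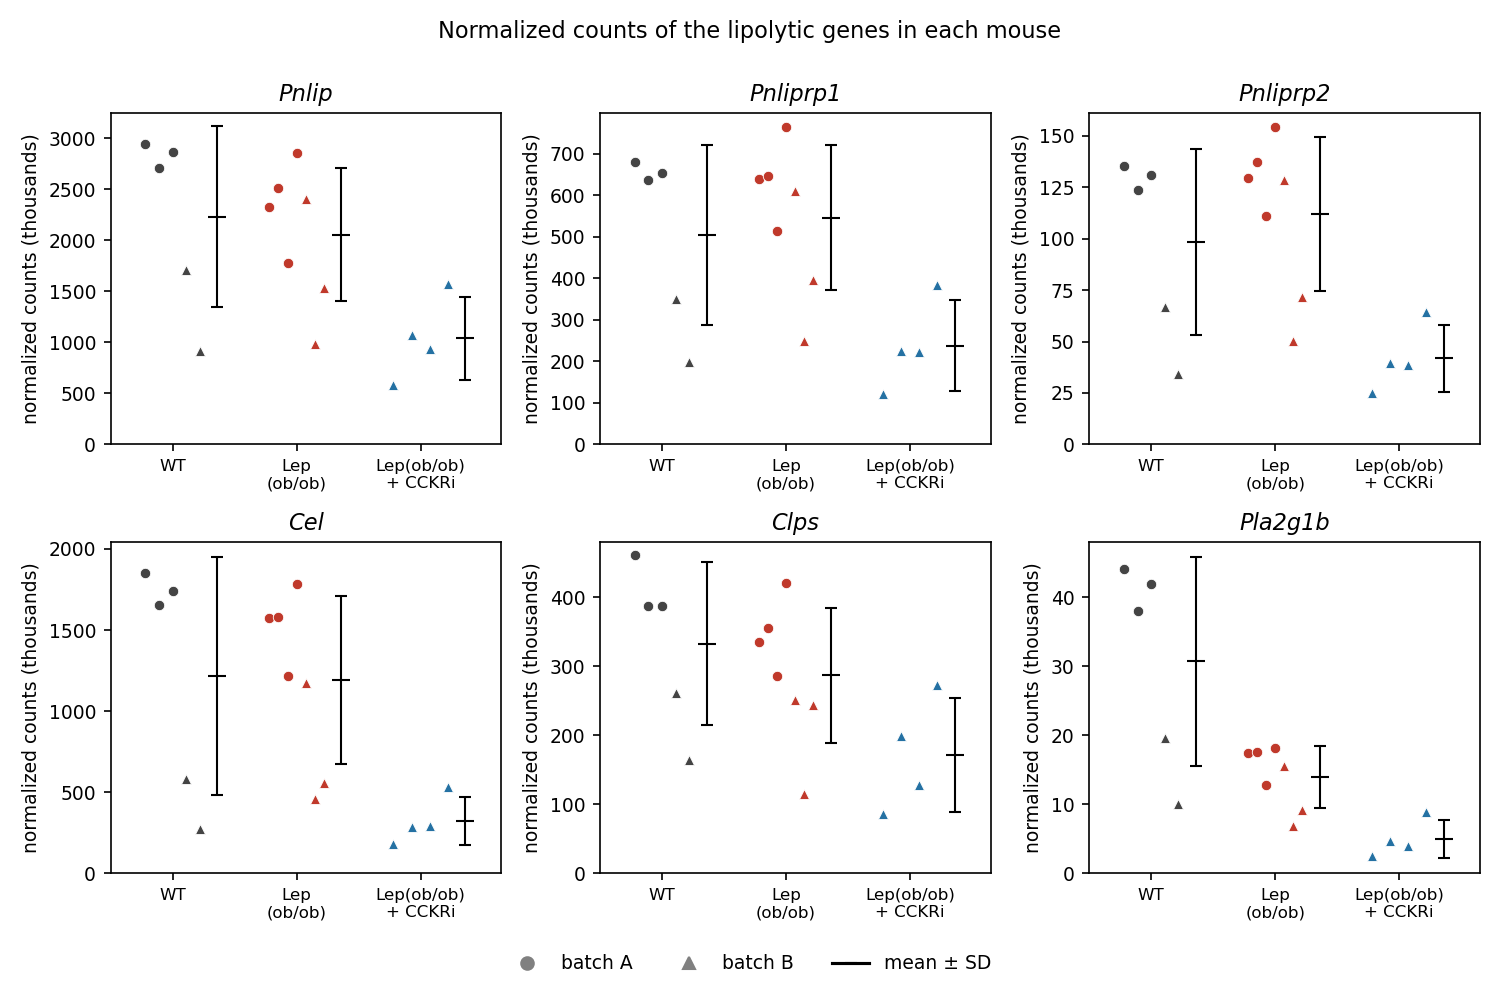
Normalized counts (in units of 1000, linear axis from 0) of each gene in each mouse, with circles for batch A, triangles for batch B and bars for the group mean ± SD. Most batch B mice lie below the batch A mice of their group, and Pla2g1b alone separates Lep(ob/ob) from WT in batch A.

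The first comparison asked how leptin deficiency and obesity relate to these transcripts. Pla2g1b was lower in Lep(ob/ob) than in WT mice, while the 5 lipase and colipase genes did not pass the test. Pla2g1b, in units of 1000 normalized counts as for all such values below, was at 44.1, 38 and 41.9 in the WT mice of batch A, and 19.5 and 9.96 in those of batch B. The Lep(ob/ob) mice had 17.4, 17.6, 12.8 and 18.1 in batch A and 15.5, 6.80 and 9.23 in batch B. Groups did not overlap in batch A, where 9.92% of all genes were lower without overlap, and overlapped in batch B. The log2 fold change was -1.01 (SE 0.30, adjusted p = 0.0444). This was 1 of 6 genes called, against a background of 9.07% of all genes tested in either direction and 3.14% lower. The call was near its threshold, since leaving out any of 12 of the 16 mice raised the adjusted p above 0.05 (to at most 0.120). Over all 16 fits with 1 mouse left out, the log2 fold change lay between -1.22 and -0.91. Batch A alone gave -1.28 (adjusted p = 0.000175) and batch B alone -0.53 (adjusted p = 0.621).

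Pnlip, the main triglyceride lipase, had levels of 2948, 2709, 2869.6, 1713 and 919 in the 5 WT mice. In Lep(ob/ob) mice the lowest value was 981, the median 2325 and the highest 2851. The ranges overlapped almost fully, and the log2 fold change was -0.04 (SE 0.35, adjusted p = 0.962). Its relative Pnliprp1 ranged from 199 to 679.9 among WT mice and from 249 to 765 among Lep(ob/ob) mice, with a log2 fold change of 0.21 (SE 0.32, adjusted p = 0.738). Pnliprp2 ranged from 34.4 to 135 among WT mice and from 50.3 to 154 among Lep(ob/ob) mice, with a log2 fold change of 0.30 (SE 0.29, adjusted p = 0.576). All 3 chromosome 19 genes therefore overlapped between genotypes in each batch.
Cel, the bile salt-dependent lipase, ranged from 271 to 1849 among WT mice and from 455 to 1786 among Lep(ob/ob) mice, with a log2 fold change of 0.18 (SE 0.37, adjusted p = 0.809). Clps, the lipase cofactor, ranged from 165 to 461 among WT mice and from 115 to 420.4 among Lep(ob/ob) mice, with a log2 fold change of -0.18 (SE 0.30, adjusted p = 0.765). The median log2 fold change of the 6 genes was 0.07, beside -0.02 over all genes tested.

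Other genes of the same functions were counted from lists. Of 16 digestive proteases, 1 was higher and 2 were lower in Lep(ob/ob), namely Prss1, a trypsinogen (log2 fold change 3.72, SE 0.63, adjusted p = 0.00142), Ctrc, chymotrypsin C (-1.43, SE 0.24, adjusted p = 0.00115), and Cela3a, an elastase (-2.29, SE 0.43, adjusted p = 0.00273). Their median was -0.23. Of 3 other secreted phospholipases A2 that were tested, Pla2g2f was higher (2.17, SE 0.41, adjusted p = 0.00322). None of 4 tested relatives of pancreatic lipase outside pancreatic juice passed, and Lpl, lipoprotein lipase, had 1.61 (SE 0.66, adjusted p = 0.143). Of 8 tested intracellular lipases and esterases, Ces1f was lower (-2.52, SE 0.71, adjusted p = 0.0332). Of 7 acinar transcription factors, Ptf1a, which drives acinar enzyme genes, was lower (-1.03, SE 0.21, adjusted p = 0.00561). Among 7 tested receptors of signals that act on acinar cells, the secretin receptor gene Sctr was lower (-1.39, SE 0.34, adjusted p = 0.016) and Vipr1 was higher (0.86, SE 0.22, adjusted p = 0.0189). Cckar, a CCK receptor gene, had -0.55 (SE 0.25, adjusted p = 0.182). None of 7 other zymogen granule genes passed.

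Levels of other cell markers stood beside these values. Summed islet hormone and granule markers (7 of 7 detected in every mouse) ran from 1293 to 1909 TMM-scaled CPM in lean mice, from 2558 to 13096 in untreated obese mice and from 1558 to 14899 in treated mice, and 5 of 7 were called higher in Lep(ob/ob). Summed adipocyte markers (6 of 6 detected in every mouse) ran from 59.8 to 192 in lean mice, from 56.7 to 1427 in untreated obese mice and from 193 to 1097 in treated mice. Of the 6 markers, 4 had positive and 2 had negative log2 fold changes in Lep(ob/ob), and the only one called, Cfd (adipsin), was lower (-3.15, SE 0.69, adjusted p = 0.00806). The 2 highest adipocyte sums belonged to Lep(ob/ob) mouse 463 and CCKRi-treated mouse 69, which also had the lowest Pnlip counts of their groups. These mice were the highest of their groups for macrophage markers (765 and 272), lymphocyte markers (36 and 22) and stellate markers (1344 and 565) as well. Of 6 duct markers, Krt7 was called higher in Lep(ob/ob) (1.03, adjusted p = 0.0125), but 4 of 6 had negative values and the median was -0.22. Vil1, the only 1 of 6 intestine markers that passed the filter, was higher (2.88, adjusted p = 8.1e-05). With the adipocyte, islet or acinar score as a covariate (the acinar score is the mean of the 16 proteases), the log2 fold change of Pla2g1b between Lep(ob/ob) and WT was -0.98, -1.52 or -0.86 (edgeR adjusted p = 0.0179, 0.00961 or 0.0158). For treated mice against WT it was -1.92, -2.58 or -1.48 (edgeR adjusted p = 0.00113, 0.00726 or 0.00524). Summed islet markers did not overlap between Lep(ob/ob) and WT mice, so that genotype and islet content cannot be told apart with that score. The acinar score holds Prss1, Ctrc and Cela3a, which were themselves called between these genotypes. A difference in Pla2g1b apart from cell makeup was thus not tested by these fits. None of the other 5 genes was called in any of the 3 comparisons with any of these scores (lowest adjusted p = 0.0798, for Clps in Lep(ob/ob) against WT with the islet score). Of all 13660 genes, 2209, 3912 or 1702 were called for Lep(ob/ob) against WT with the adipocyte, islet or acinar score (1239 in the main fit). For treated mice these numbers were 1717, 1453 or 1457 against WT (761 in the main fit) and 263, 21 or 940 against untreated mice (8 in the main fit). In bulk tissue, fewer acinar cells and less RNA per acinar cell cannot be told apart.

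**Figure D2:**
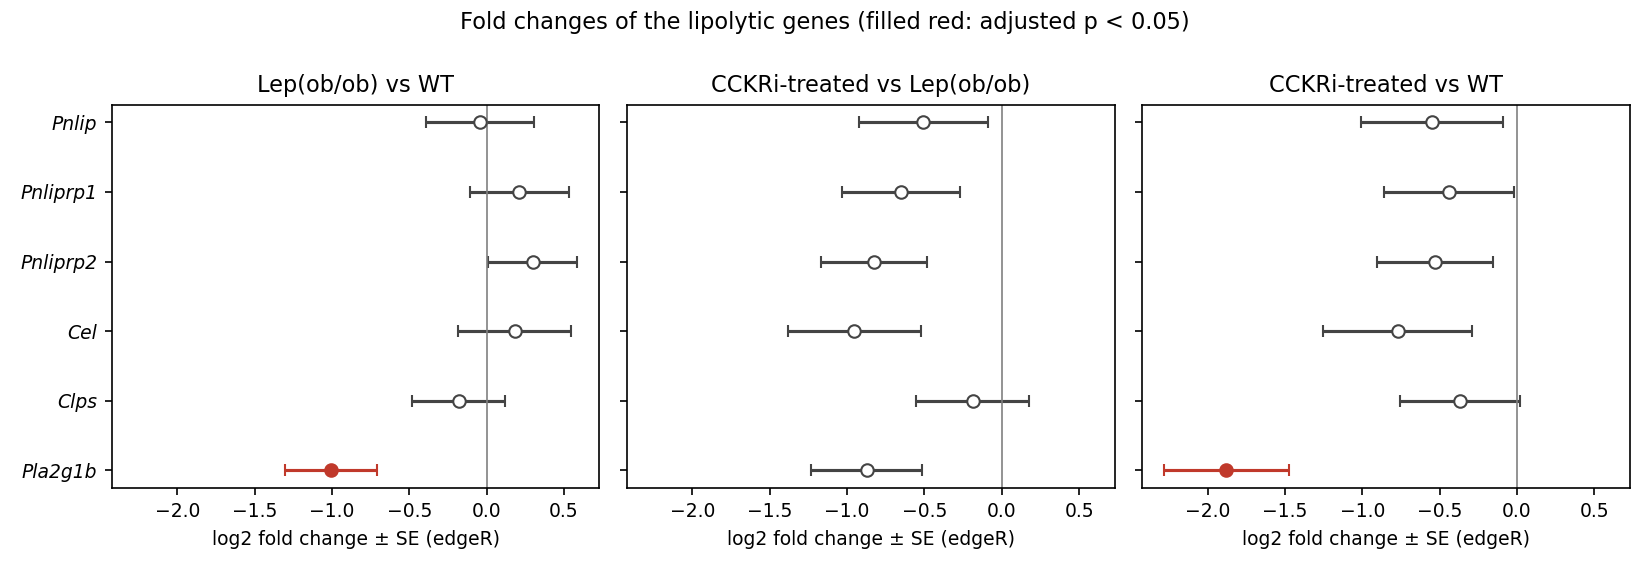
Log2 fold changes of the 6 genes (horizontal axis) with SE in the 3 comparisons, from edgeR. Filled red points passed an adjusted p of 0.05 and belong to Pla2g1b, at -1.01 against WT without and -1.88 with antagonist, and all 6 genes lie below 0 in both comparisons of CCKRi-treated mice.

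Within the lipolytic set, the makeup of the transcripts differed by genotype. Each gene was divided by Pnlip of the same mouse, which removes differences that all 6 genes share. These ratios were chosen after the values had been seen. They were tested by exact permutation of the genotype within batches, two-sided, with 350 arrangements and a smallest possible p of 0.00286. No adjustment was made to the exact p-values, of which 57 were computed over all ratios and comparisons, besides those within single batches.

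The log2 ratio of Pla2g1b to Pnlip was -6.06, -6.16, -6.10, -6.45 and -6.53 in the WT mice. In Lep(ob/ob) mice it ran from -7.37 to -7.06, so that no obese mouse reached a WT mouse in either batch. The batch-weighted difference was -0.94 (SD within groups 0.09, n = 7 and 5, exact p = 0.00286, the smallest possible). Only 0.433% of all genes were lower without overlap on this scale. A fit of edgeR over all genes with the Pnlip count as library size called it as well (-0.94, SE 0.16, adjusted p = 0.00134), in a background of 0.439% called lower.

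The chromosome 19 relatives departed from Pnlip in the other direction. The log2 ratio of Pnliprp1 to Pnlip was -2.12, -2.09, -2.14, -2.29 and -2.21 in WT mice and ran from -1.98 to -1.80 in Lep(ob/ob) mice. The difference was 0.25 (SD within groups 0.05, n = 7 and 5, exact p = 0.00286). For Pnliprp2 the ratio ran from -4.74 to -4.45 in WT and from -4.42 to -4.00 in Lep(ob/ob), a difference of 0.35 (SD within groups 0.08, exact p = 0.00286). Both ratios were higher in every Lep(ob/ob) mouse than in every WT mouse, as were 1.42% of all genes. In the fit over all genes, where edgeR called 3.16%, neither passed (adjusted p = 0.210 for Pnliprp1 and 0.168 for Pnliprp2). Cel differed by 0.24 (exact p = 0.020), with overlapping groups in batch A, by 0.089 in batch A alone (exact p = 0.143) and by 0.45 in batch B alone (exact p = 0.20), and the pooled p rose to at most 0.060 when 1 of 4 mice (WT 5492 or 5494, Lep(ob/ob) 441 or 417) was left out. Over all genes, Cel did not pass on this scale (edgeR adjusted p = 0.377). Clps differed by -0.15 (exact p = 0.289).

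**Figure D3:**
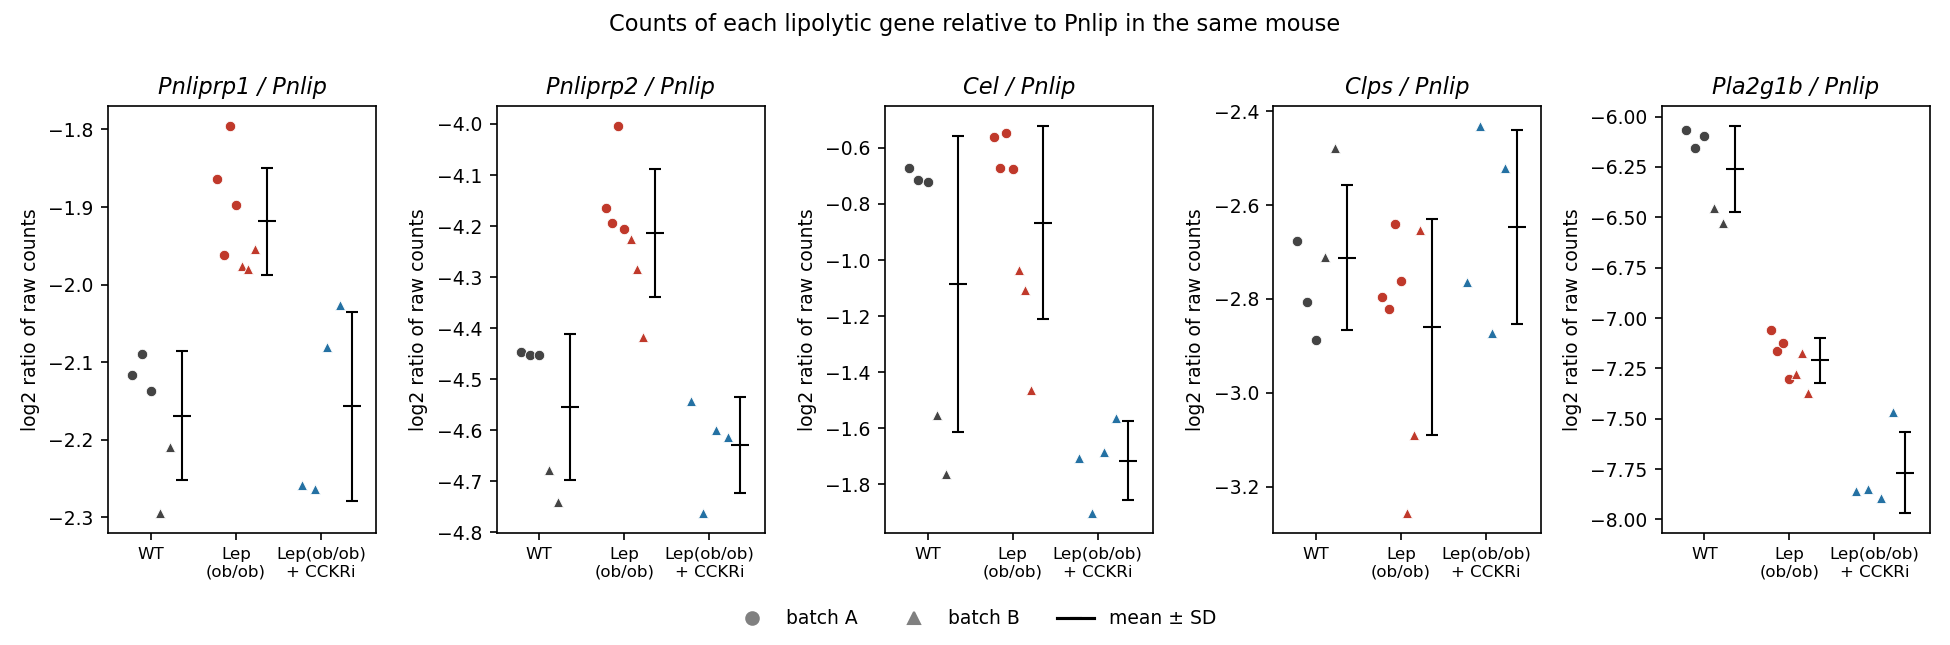
Log2 ratio of raw counts of 5 genes to Pnlip in the same mouse, with circles for batch A, triangles for batch B and bars for the group mean ± SD (axes do not start at 0 and differ between panels). The Pla2g1b ratio lies between -6.53 and -6.06 in WT, between -7.37 and -7.06 in Lep(ob/ob) and between -7.90 and -7.47 in CCKRi-treated mice, and the Pnliprp1 and Pnliprp2 ratios are highest in Lep(ob/ob).

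The second comparison asked what the CCK receptor antagonists changed in obese mice. All 6 lipolytic genes had negative log2 fold changes against untreated Lep(ob/ob) mice, and 0 of 6 passed the test, where 0.0586% of all genes tested did. At an unadjusted p of 0.05, 3 of 6 genes and 14.3% of all genes passed with edgeR, and DESeq2 with batch called 0 of the 6. The values were -0.95 for Cel (SE 0.43, adjusted p = 0.340), -0.87 for Pla2g1b (SE 0.36, adjusted p = 0.310) and -0.83 for Pnliprp2 (SE 0.34, adjusted p = 0.313). Pnliprp1 had -0.65 (SE 0.38), Pnlip -0.51 (SE 0.42) and Clps -0.19 (SE 0.36), with adjusted p from 0.434 to 0.823. The median of the 6 genes was -0.74, beside -0.01 over all genes tested and -0.49 over the 16 proteases, of which 13 were negative. No gene of the other lists named above was called in this comparison either. Stellate and macrophage markers had negative values as well (5 of 5 with a median of -1.26 and 6 of 6 with a median of -1.22). Lymphocyte and endothelial markers were also negative (5 of 5 tested each, medians of -0.48 and -0.17), as were 5 of 6 adipocyte markers (median -0.33). Islet markers went the other way (7 of 7 positive, median 0.72), and 4 of 6 duct markers were positive (median 0.14). None of these was called, and the part of other cells in the lipolytic values was not tested. With the acinar score as a covariate, the values were -0.70 for Cel, -0.62 for Pla2g1b and -0.21 for Pnlip, none called. For the same genes in that order, the islet score gave -1.09, -1.06 and -0.64 and the adipocyte score -1.01, -0.94 and -0.57, none called. Leaving out 1 mouse made no call but moved the values, to -0.51 for Cel, -0.53 for Pla2g1b and -0.20 for Pnlip without Lep(ob/ob) mouse 461, and to -1.30, -1.30 and -0.77 without CCKRi-treated mouse 76.

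In the treated mice, in the order proglumide 69 and 72 and lorglumide 74 and 76, Pnlip was at 583, 1074, 937 and 1568. Untreated Lep(ob/ob) mice of the same batch had 2404, 981 and 1532. Mouse 461 was thus highest, and the range of the treated mice ran into that of the others. For Cel the treated mice had 179, 287, 291 and 530.2, against 1173, 455 and 555. For Pla2g1b they had 2.51, 4.65, 3.93 and 8.87, against 15.5, 6.80 and 9.23. For both genes only mouse 76 lay above the lowest untreated mouse. Pnliprp1 was at 122, 224, 221.5 and 385 in treated mice and at 611, 249 and 395 in untreated ones. Pnliprp2 was at 25.0, 39.6, 38.6 and 64.1, against 128.6, 50.3 and 71.7. Clps was at 85.8, 199, 128 and 273, against 252, 115 and 244. All 6 genes overlapped between treated and untreated mice of batch B. Mouse 69 was lowest and mouse 76 highest among the treated mice for each of the 6 genes, so that each drug had 1 low and 1 higher mouse, and the drugs were not compared by a test.

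Relative to Pnlip, 4 of the other 5 genes were lower in every treated mouse than in every untreated Lep(ob/ob) mouse of batch B, where 0.117% of all genes were. That scale raised the median of all genes by 0.46, which lowers this share. In the main fit, some other acinar genes lay below Pnlip (-0.51), such as Ctrb1 (-1.06) and Gp2 (-0.92), and others above it, such as Cela1 (-0.15). None of these was called. Whether lower ratios are particular to the lipolytic genes among acinar genes was not tested. Ratios to Pnlip have 35 arrangements here and a smallest possible p of 0.0286. Pnliprp2 relative to Pnlip was -4.54, -4.76, -4.60 and -4.61 in treated mice and ran from -4.42 to -4.22 in untreated ones, a difference of -0.32 (SD within groups 0.10, n = 4 and 3, exact p = 0.0286). Cel differed by -0.51 (SD within groups 0.18, exact p = 0.0286). Pla2g1b differed by -0.49 and Pnliprp1 by -0.19 (exact p = 0.0571 each), while Clps differed by 0.35 with overlapping groups (exact p = 0.143). In the fit over all genes with the Pnlip count as library size, edgeR called none of the 5 (adjusted p from 0.404 to 0.459) and 0.00732% of all genes, and that scale moved the median of all genes by 0.46. The untreated Lep(ob/ob) mice of batch B enter both this comparison and the one with WT.

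The third comparison set treated obese mice against lean mice. Pla2g1b fell by 1.88 on the log2 scale (SE 0.40, adjusted p = 0.00883), and all 4 treated mice lay below all 5 WT mice, as did 5.33% of all genes. All treated mice were of batch B and 3 of the WT mice of batch A, so that this separation mixes batch with group. Within batch B the treated mice ran from 2.51 to 8.87 and the WT mice from 9.96 to 19.5, and the share of all genes is not given there. Pla2g1b was the only 1 of 6 genes called, where 5.57% of all genes were called and 1.35% were lower. The other 5 genes had log2 fold changes from -0.77 for Cel to -0.37 for Clps, with adjusted p from 0.475 to 0.708. Of the lists, 1 of 16 proteases was higher and 2 were lower, namely Prss1 (4.60), Cela3a (-2.51) and Try4 (-1.35), a trypsinogen, and Pla2g2f was higher (2.63, adjusted p = 0.00442). The zymogen granule gene Gp2 (-1.33, adjusted p = 0.0485) and the acinar transcription factor gene Gata4 (-0.91, adjusted p = 0.0365) were lower. Among markers of other cells, 5 of 7 islet genes, Krt7 (1.23) and Vil1 (3.14) were higher, and Cfd (-4.23) and Krt19 (-1.15) were lower. Cfd was the only negative one of 6 adipocyte markers, whose median was 1.12, and the duct markers split into 3 positive and 3 negative. All tested macrophage (6), stellate (5), lymphocyte (5) and endothelial (5) markers were negative, with medians of -0.82, -0.73, -0.91 and -0.33, and none was called. Leaving out each mouse kept the Pla2g1b call (adjusted p from 0.00272 to 0.0402). Batch B alone gave -1.55 (adjusted p = 0.297), and a fit of only these 2 groups gave -1.54 (adjusted p = 0.080). Relative to Pnlip, Pla2g1b differed from WT in batch B by -1.28 (n = 4 and 2) with no overlap, as found below WT for 0.968% of all genes, and gave the smallest p that its 15 arrangements allow (exact p = 0.0667). In the fit over all genes relative to Pnlip it was called by edgeR (-1.36, SE 0.21, adjusted p = 0.000382), where 4.24% of genes were called and 0.154% were lower. Pnliprp1, Pnliprp2, Cel and Clps overlapped between treated and WT mice on that scale, with differences from -0.06 to 0.09 (exact p from 0.333 to 0.667). In the fit relative to Pnlip, the median of all genes moved by 0.53 in this comparison.

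Lipolytic genes were finally set against the other enzyme classes of pancreatic juice. The summed counts of the 6 genes divided by those of the amylase genes gave log2 ratios of 5.84 to 8.91 for lean mice, 6.85 to 9.24 for untreated obese mice and 5.93 to 7.10 for treated mice. Lep(ob/ob) exceeded WT by 0.66 within batches (SD within groups 0.41, exact p = 0.0171). With summed amylase as library size the median of all genes tested moved by 0.70 in the same direction, so that a value of this size is not particular to the lipolytic genes. Beside a median of 0.07 for the 6 lipolytic genes, both tested amylase genes of the denominator had negative log2 fold changes, with Amy2a5 called lower (-1.05, SE 0.25, adjusted p = 0.0146, edgeR) and Amy2b at -0.57 (SE 0.23, adjusted p = 0.147). For the ratio, batch A alone gave 0.25 (exact p = 0.0286) and batch B alone 1.25 (exact p = 0.20). Treated mice lay at -1.26 relative to untreated Lep(ob/ob) mice (exact p = 0.0857) and at -0.01 relative to WT (exact p = 1.0). The amylase denominator is incomplete, since Amy2a2, Amy2a3 and Amy2a4 had 0 counts in every mouse and every stretch of 50 bases in them occurs in another gene. The denominator leaves out the salivary amylase gene Amy1 (1065 to 3885 counts per mouse), and what it holds lay nearly all on Amy2b (7284 to 25986 counts, beside 34 to 284 on Amy2a5), which the annotation lists as a pseudogene. By edgeR, Amy2b was higher in batch B by 0.97 on the log2 scale (adjusted p = 0.00489), Amy2a5 was lower (-1.14, adjusted p = 0.00407), and Amy1 had -0.47 (adjusted p = 0.102).

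The log2 ratio to 16 protease genes ran from -1.23 to -1.15 in WT, from -1.11 to -0.58 in Lep(ob/ob) and from -0.87 to -0.71 in treated mice. Every obese mouse lay above every WT mouse, and the difference between Lep(ob/ob) and WT was 0.27 (SD within groups 0.08, exact p = 0.00286, the smallest possible). With the summed protease count as library size, the median of all genes tested moved by 0.25 in the same direction. A difference of this size is thus not particular to the lipolytic genes. The share of all genes without overlap on this scale was not counted. The difference was 0.11 in batch A (exact p = 0.0286) and 0.49 in batch B (exact p = 0.10), each the smallest p of its batch. Pnliprp2, Pnliprp1 and Cel alone exceeded WT by 0.53, 0.44 and 0.43 on this scale (exact p = 0.00286, 0.00286 and 0.00571), Pnlip by 0.19 (exact p = 0.0143), Clps by 0.04 (exact p = 0.589), and Pla2g1b fell by 0.76 (exact p = 0.00286). All but Clps of the genes that exceeded WT did so by more in batch B (0.78, 0.66, 0.84 and 0.38 for Pnliprp2, Pnliprp1, Cel and Pnlip) than in batch A (0.36, 0.29, 0.14 and 0.052), while Pla2g1b differed by -1.0 in batch A and -0.40 in batch B. Treated and untreated Lep(ob/ob) mice differed by -0.08 (exact p = 0.429), and treated mice exceeded WT by 0.41 (exact p = 0.0667, the smallest possible in batch B). In the fits with protease scaling, the median of all genes moved by 0.61 and 0.87 in these comparisons. Both lipolytic values lay below those medians, so that 0.41 is not a rise particular to the lipolytic genes. With the summed protease count as library size, edgeR called Pnliprp1 (0.44, adjusted p = 0.00566) and Pnliprp2 (0.53, adjusted p = 0.0168) higher and Pla2g1b lower (-0.76, adjusted p = 0.00693) in Lep(ob/ob), with 4.4% of all genes called, on a scale that moved the median of all genes by 0.25.

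**Figure D4:**
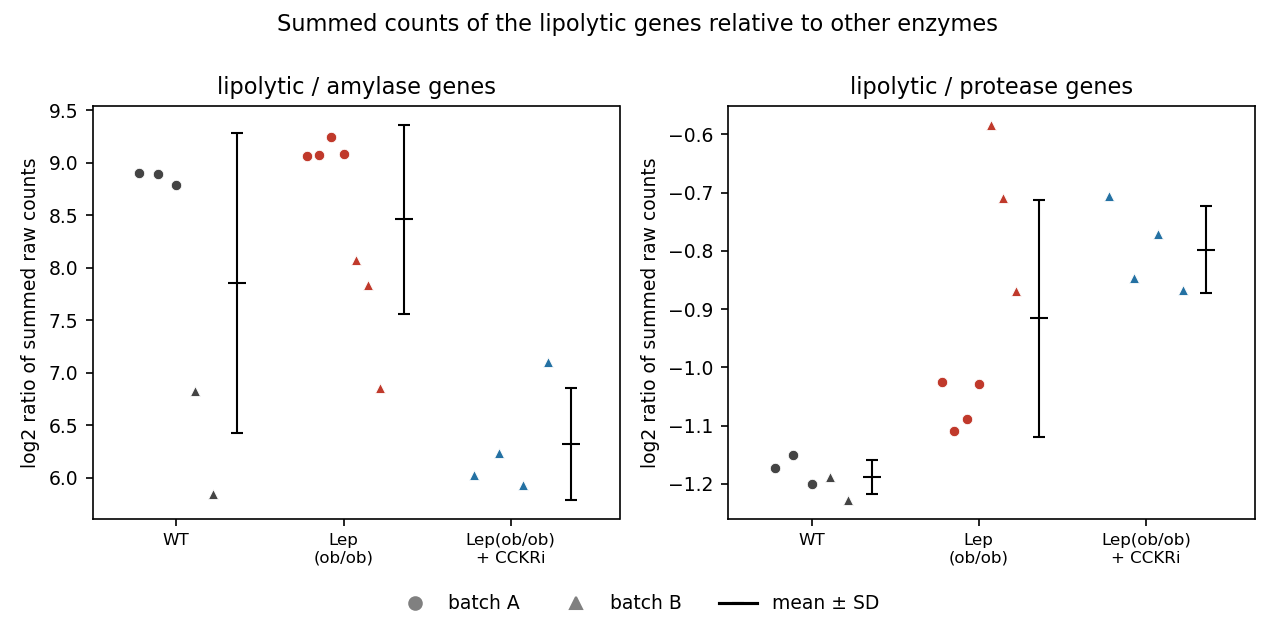
Log2 ratio of the summed counts of the 6 lipolytic genes to summed amylase genes (left) and to 16 summed protease genes (right) in each mouse, with circles for batch A, triangles for batch B and bars for the group mean ± SD (axes do not start at 0). The protease ratio lies between -1.23 and -1.15 in all 5 WT mice and above that range in all obese mice, and the amylase ratio spreads widely by batch. With summed proteases as library size, the median of all genes rose by 0.25 for Lep(ob/ob) and by 0.87 for treated mice, each against WT.

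Across the 16 mice the 6 genes ran closely together, and the points share batches and library makeup, so that r is a description only. Pearson's r of log2 CPM was 0.99 between Pnliprp1 and Pnliprp2, 0.99 between Pnlip and Pnliprp1, and lowest, at 0.85, between Pnliprp2 and Pla2g1b. The genes outside the set with the most similar pattern to Pnlip, among 10859 genes, were Eef1g, Rnase1 and Suclg2 (r = 0.99, 0.99 and 0.98). Those of Pnliprp1 were Srpr, Fam149a and Suclg2 (r = 0.99, 0.99 and 0.98), and those of Pnliprp2 were Rtcb, Eef2 and Fam149a (r = 0.99, 0.98 and 0.98). Cel ran most closely with Eef2, Qsox1 and Egf (r = 0.99 each), and Clps with Stard10, Spint2 and Krtcap2 (r = 0.99, 0.99 and 0.98). Pla2g1b ran most closely with Vtn, Tmem97 and Gjb2 (r = 0.99, 0.98 and 0.98).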

How the data were processed

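Raw counts per gene and the authors' normalized signal (counts divided by 1 size factor per mouse, checked on the values: 0.617 to 1.44) were taken from the deposited tables. Per the submitters' processing notes, the authors used Trim Galore 0.6.7, cutadapt 3.5, STAR 2.7.9 and the mm10 genome. The counter and its strand setting are not given in the sources used here. Raw counts were fitted with edgeR 4.0.16 (R 4.3.3, limma 3.58.1) by TMM, filterByExpr and a quasi-likelihood model of 3 groups and batch over all 16 mice, with Benjamini-Hochberg adjustment over 13660 genes and a call at 0.05. DESeq2 1.42.0 was an alternative. Log2 CPM used a prior count of 2. Ratios of raw counts were tested by exact permutation (Python 3.11.15, numpy 2.4.6). Named genes are the 6, amylase genes, up to 3 called genes per list and 3 genes of most similar pattern for each (mean log2 CPM of at least 1). Lpl and Cckar were named outside this rule, with their values seen. Members and lists were chosen with earlier results of these data known. In simulated data, 60.5% of 2-fold and 90.5% of 4-fold changes were recovered for Lep(ob/ob) against WT (13660 genes), and 41.0% and 87.5% for treated against untreated mice. No pair of mice of 1 group looked like 1 library deposited again (chi-square per gene of at least 8.09 in all 37 pairs). Nothing in the labels shows separate litters, so p-values measure the spread between these mice. Alternatives were scaling, filter, tool, batch, marker scores as covariates, each drug and each mouse left out.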

Additional observations from a re-analysis of the deposited data

Results flagged for a closer look

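Mouse 463 was the lowest Lep(ob/ob) mouse for Clps, with 115 in units of 1000 normalized counts, against 244 to 420.4 in the other 6 mice. Its gap to the next mouse was 0.578 of the group's range on the log2 scale. Among CCKRi-treated mice, lorglumide mouse 76 had a log2 ratio of Pla2g1b to Pnlip of -7.47, apart from -7.90 to -7.85 in the other 3, a gap of 0.896 of the range. In all, 39 groups were examined and 2 stood out, where about 1 in 20 would by chance.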

How the results depend on the processing

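No paired analysis was possible because the groups share no replicate numbers. The cause of the shifts below was not tested. Of the 6 genes, Pla2g1b kept its direction under every alternative run in all 3 comparisons. For Lep(ob/ob) against WT, it lost its call with no batch covariate, with the 50 most counted genes out of TMM, at least 10 counts in every mouse, limma (0 of 6 genes called in each, with log2 fold changes of -1.16, -0.97, -0.99 and -0.99 and adjusted p of 0.0844, 0.0524, 0.0526 and 0.0508 beside -1.01 in the main fit), and, with a smaller fold, in batch B alone (0 called, -0.53) and with amylase scaling (-0.38). Amylase scaling called 2 genes and protease scaling 3. Genes called there numbered 712 with an added bound of 1 on the log2 fold change in either direction, 2209, 3912 with the adipocyte and islet score as covariate, 782 with the stricter filter, 8 in batch B alone, 798 with no batch covariate, 3178 with amylase and 601 with protease scaling (1239 in the main fit). The main fit called 65.4% of its genes higher, amylase scaling 98.8% and protease scaling 92.3%.
For treated against untreated mice, genes called numbered 104 with DESeq2 with batch, 2518 with DESeq2 without batch (5 of the 6 genes), 570 with no batch covariate, 940, 263 and 21 with the acinar, adipocyte and islet score, 2 in batch B alone, 5 with limma, 3 with only the groups compared, and 0 with proglumide alone, lorglumide alone or protease scaling (8 in the main fit). Against WT they numbered 2320 with DESeq2 without batch (5 of the 6 genes), 1457, 1717 and 1453 with the acinar, adipocyte and islet score, 438 with the stricter filter, 13 in batch B alone, 1428 with no batch covariate, 2.8e2 (rounded) with only the groups compared, 239 with proglumide alone, 502 with amylase and 1223 with protease scaling (761 in the main fit), and 0 of the 6 genes were called in batch B alone, with lorglumide alone or with only the groups compared.
Other values changed sign. For Lep(ob/ob) against WT these were Cel at -0.038 (DESeq2 without batch), -0.14 (batch A alone), -0.20 (islet score) and -0.046 (no batch covariate), Clps at 0.42 and 0.043 (amylase and protease scaling), Pnlip at 0.086 (acinar score), 0.28 (batch B alone), 0.57 and 0.19 (amylase and protease scaling), Pnliprp1 at -0.33 and Pnliprp2 at -0.10 (islet score), Clps to Pnlip at 0.036 (batch A alone) and Clps to proteases at -0.024 (batch B alone, added after seeing the data). For treated against untreated mice they were Clps at 0.16 (acinar score), 0.049 (lorglumide alone) and 0.36 and Pnlip at 0.11 (protease scaling). Against WT they were Clps at 0.12 (acinar score), and with protease scaling Clps 0.40, Cel 0.087, Pnlip 0.30, Pnliprp1 0.37 and Pnliprp2 0.34. Protease scaling moved the median of all genes by 0.61 and 0.87 in these comparisons, and amylase scaling by -0.55 and 0.16 (0.70 for Lep(ob/ob) against WT).
The lipolytic to amylase ratio for Lep(ob/ob) against WT was -0.36 with Pla2g1b alone as numerator, 1.25 (exact p = 0.20) in batch B alone and 0.61 (exact p = 0.384) without strata. For treated against untreated mice it was -2.14 (exact p = 0.00909) without strata. Against WT it was 0.0058 with Amy1 added (chosen after seeing the data), 0.091 and 0.075 with Pnliprp1 and Pnliprp2 alone, 0.18 with lorglumide alone and 0.41 with protease genes as denominator.
Leaving out each mouse gave 837 to 1444, 0 to 9 and 516 to 968 genes called in the 3 comparisons and 0 to 1, 0 and 1 of the 6 genes. The call of Pla2g1b in Lep(ob/ob) held without WT 59, Lep(ob/ob) 461 or CCKRi-treated 69 or 76, and was lost without any other. Other values moved by over 1.5 times without crossing 0. For Lep(ob/ob) against WT these were Pnliprp1 (0.039 to 0.30), Pnliprp2 (0.10 to 0.38) and Clps (-0.29 to -0.070), with 1 end of each range without WT 59 and the other without Lep(ob/ob) 463, and for treated against untreated mice Pnliprp1 (-0.98 to -0.34) and Pnliprp2 (-1.11 to -0.46), with the ends without CCKRi-treated 76 and Lep(ob/ob) 461. Against WT, the values of the 5 genes other than Pla2g1b lay between -1.13 (Cel) and -0.13 (Clps). None of these was called. Ranges that crossed 0 were -0.22 to 0.048 for Pnlip and -0.051 to 0.28 for Cel (Lep(ob/ob) against WT), -0.51 to 0.042 for Clps (treated against untreated), and, against WT, -0.16 to 0.046 for Cel to Pnlip and -0.17 to 0.063 for Clps to Pnlip. The lipolytic to amylase ratio ranged from 0.41 to 0.76, from -1.63 to -1.02 and from -0.50 to 0.48. With 1 mouse fewer, exact p-values in batch B could not reach 0.05.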
